A study of Mus musculus with 8 samples.

Results

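The genes described here are 9 genes of the goblet cell and of mucus, Muc2, Fcgbp, Zg16, Clca1, Tff3, Agr2, Spink4, Retnlb and Pigr. They were chosen by name and not by their values, though with earlier results of these data known. They were looked up among the 55414 Ensembl identifiers of a gene count table. The table holds RNA-seq of purified small intestinal Paneth cells, with 1 library for each of 8 C57BL/6J mice. Control mice (n = 4) were fed standard chow, and zinc deficient mice (n = 4) were fed zinc depleted chow for the 7 weeks of the study, ad libitum. Cells were sorted by FACS from a single cell suspension, and libraries were prepared with the TruSeq stranded mRNA kit of Illumina. Sex, age, the zinc content of the chow and the surface markers of the sort are not given in the labels. The comparison of the diets asks how zinc deficiency changes the transcriptome of Paneth cells.

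Paneth cells and goblet cells are both secretory cells of the intestinal epithelium. They descend from Atoh1-positive progenitors, and cells that share features of both are known in the crypt. Goblet cells secrete the mucus gel. Muc2 is its main gel-forming mucin, which is assembled with the help of the disulfide isomerase Agr2. Fcgbp, Clca1 and Zg16 are secreted with Muc2: Fcgbp is a large protein of von Willebrand D domains, Clca1 is a metalloprotease that processes mucus, and Zg16 is a lectin that binds Gram-positive bacteria. Tff3 is a trefoil peptide of mucosal repair, Spink4 a Kazal-type peptide of secretory cells and Retnlb an antimicrobial resistin-like protein. Pigr is the receptor that carries IgA across the epithelium into the lumen.

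All 9 genes were detected in all 8 mice. They are spread over 7 chromosomes, and 3 of them lie on chromosome 7 at separate places. In GRCm39, with the GENCODE M39 annotation, these are Muc2 (ENSMUSG00000025515, chr7:141276583-141308430, plus strand), Fcgbp (ENSMUSG00000047730, chr7:27770661-27820287, plus strand) and Zg16 (ENSMUSG00000049350, chr7:126649302-126686500, minus strand). Clca1 (ENSMUSG00000028255) is at chr3:144709578-144738537 and Tff3 (ENSMUSG00000024029) at chr17:31344280-31348620, both on the minus strand. On the plus strand are Agr2 (ENSMUSG00000020581) at chr12:36042904-36054086 and Spink4 (ENSMUSG00000028415) at chr4:40920044-40931396. Also on the plus strand are Retnlb (ENSMUSG00000022650) at chr16:48637219-48639255 and Pigr (ENSMUSG00000026417) at chr1:130754397-130779986. Pigr overlaps the antisense lncRNA Gm15848, which had 42 counts over the 8 mice. The Fcgbp relative Fcgbpl1 had 3 counts over the 8 mice.

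The promoters of Muc2, Fcgbp and Agr2 are shown because the levels of Muc2 and Agr2 and those of Muc2 and Fcgbp are set side by side below. The RefSeq promoter table (GRCm38.p6, an earlier build than that of the counts) held 4 of the 9 genes, the fourth being Pigr. Each sequence is the 250 bases before the start site, 5′ to 3′ on the strand of the gene, which is the plus strand for all of them. Capitals mark matches to 5 motifs searched on both strands: the TATA box TATAAA, the E-box CAGCTG of bHLH factors such as Atoh1, the forkhead motif TGTTTNC, the caudal motif TTTATNG and the CACCC box CCACCC of Klf factors.
Muc2, chr7:141690090-141690339: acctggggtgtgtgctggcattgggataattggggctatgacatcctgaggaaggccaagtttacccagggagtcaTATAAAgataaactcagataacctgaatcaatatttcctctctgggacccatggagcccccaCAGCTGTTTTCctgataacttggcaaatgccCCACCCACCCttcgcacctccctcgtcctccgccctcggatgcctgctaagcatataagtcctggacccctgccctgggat
Fcgbp, chr7:28070986-28071235: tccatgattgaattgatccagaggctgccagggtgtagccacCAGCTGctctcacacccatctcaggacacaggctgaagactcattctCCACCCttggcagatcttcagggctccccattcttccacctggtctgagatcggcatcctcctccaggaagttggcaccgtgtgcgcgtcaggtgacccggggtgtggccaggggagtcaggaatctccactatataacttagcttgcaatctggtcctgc
Agr2, chr12:35992675-35992924: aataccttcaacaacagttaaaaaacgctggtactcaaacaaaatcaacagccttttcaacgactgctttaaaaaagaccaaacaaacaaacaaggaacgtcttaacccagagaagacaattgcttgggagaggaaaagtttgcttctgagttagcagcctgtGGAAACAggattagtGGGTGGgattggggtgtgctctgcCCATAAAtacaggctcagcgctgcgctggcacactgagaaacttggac

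The Muc2 promoter held the E-box with its first base 112 bases before the start site, and a forkhead match at 108 that overlaps it. It also held TATAAA at 174 and 2 overlapping CACCC boxes at 81 and 77. The Fcgbp promoter held the E-box at 208 and a CACCC box at 161, and the Agr2 promoter held a forkhead match at 87, a CACCC box at 72 and a caudal match at 48, all 3 on the opposite strand. No motif of the 5 was matched in the window of Pigr. The E-box was in 13% of 32851 RefSeq promoters of the same length, the forkhead motif in 17.84%, the caudal motif in 9.811%, the CACCC box in 28.08% and TATAAA in 12.37%. These matches are descriptions of the letters and were not tested for binding.

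Levels are given as TMM-scaled CPM, that is counts scaled to a library of 1000000, with the library size multiplied by its TMM factor. Libraries held from 8557690 to 12648005 counts, and 3 counts equal 0.162 to 0.379 TMM-scaled CPM, depending on the mouse. The TMM factor of control 1, at 1.57, was the highest of the 8, and the lowest was 0.719 in zinc deficient 2. All 15 Paneth cell markers looked up were detected in all mice. Lyz1, the lysozyme of Paneth granules, ranged from 91423 TMM-scaled CPM in control 1 to 240090 in zinc deficient 2. These are the mice with the highest and the lowest TMM factor, and the part of the scaling in this range was not tested. TMM-scaled CPM are not shares of a library: the 15 Paneth cell markers summed to 1054300 in zinc deficient 2. The share of mitochondrial genes was 0.347% to 0.711%. The series describes the mice as biological replicates, and p-values cover the spread between these 8 mice. In sorted cells in bulk, fewer cells of a type and less RNA per cell cannot be told apart.

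Together, the 9 genes made up 0.764% to 1.27% of each library, on average 0.994% ± 0.0961 (SD, n = 4) in control mice and 0.977% ± 0.233 (SD, n = 4) in zinc deficient mice. Spink4 alone gave 53.5% to 69.0% of these counts. To compare genes, levels were divided by exon length (CPM per kilobase). Spink4 was highest, at 8923 ± 2754 CPM per kilobase (SD, n = 8), and ranked 12 of the 10911 genes tested. Tff3 followed at 1603 ± 442 (rank 24), Agr2 at 693 ± 280 (rank 33) and Pigr at 177 ± 28.5 (rank 66). The gel-forming mucin Muc2 came next, at 63.7 ± 47.6 CPM per kilobase (rank 160). The other mucus components were lower per kilobase: 32.1 ± 22.7 for Fcgbp (rank 324), 19.0 ± 23.8 for Retnlb (rank 538), 12.3 ± 16.0 for Clca1 (rank 861) and 7.20 ± 6.55 for Zg16 (rank 1557).

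Each gene was compared with its neighbour in this order by an exact two-sided sign-flip permutation test of the log2 ratio over the 8 mice. The order and its pairs were taken from the same 8 mice, so these tests do not check an order set beforehand. The first 4 steps, from Spink4 down to Muc2, had the same sign in 8 of 8 mice (exact permutation p = 0.00781, the smallest the test can give, adjusted p = 0.0156 over 8 pairs). Muc2 was above Fcgbp in 7 of 8 mice (exact permutation test, adjusted p = 0.0375). Retnlb was above Clca1 in 6 of 8 mice (exact permutation test, adjusted p = 0.0417). Fcgbp and Retnlb did not differ beyond their spread (exact permutation test, adjusted p = 0.170), nor did Clca1 and Zg16 (exact permutation test, adjusted p = 0.609). With the length of the longest transcript in place of the exon length, 4 of the 8 steps passed and Zg16 came before Clca1.

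**Figure D1:**
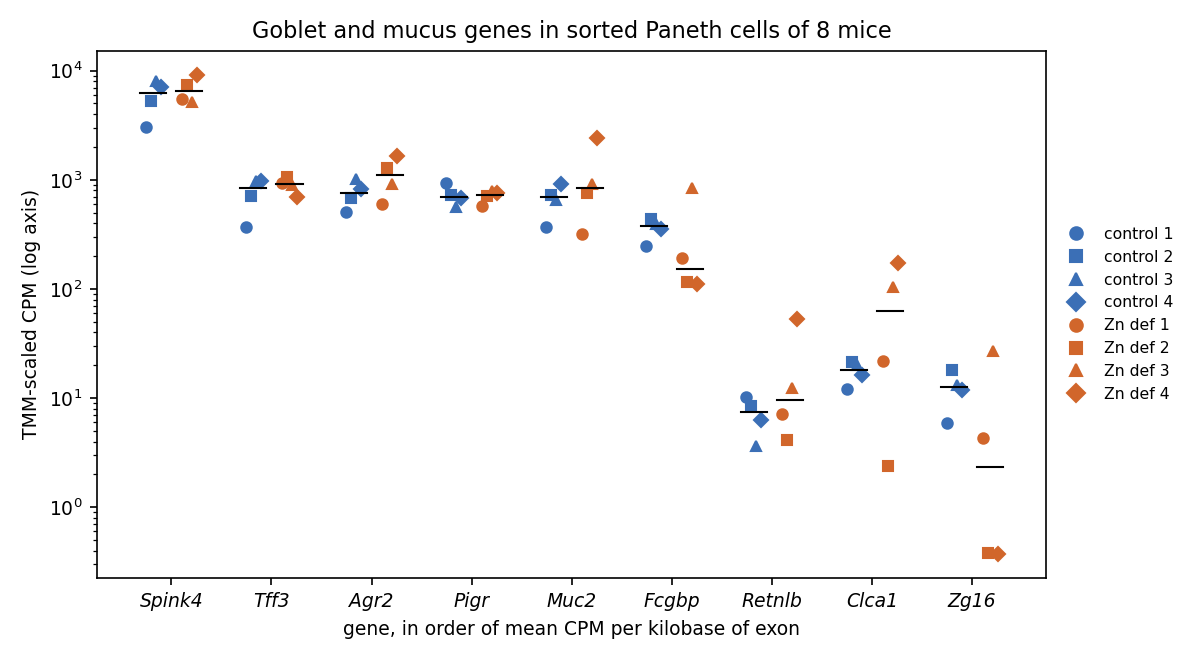
TMM-scaled CPM (log axis) of the 9 genes in each mouse, in order of the mean CPM per kilobase, with control mice in blue, zinc deficient (Zn def) mice in orange, and a short line at the median of each diet. The points of Pigr lie close together on this scale, while Fcgbp, Retnlb, Clca1 and Zg16 spread widely in the zinc deficient mice, from 0.374 to 26.8 for Zg16.

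No gene of the 9 differed between the diets in the edgeR quasi-likelihood test, and the values of the diets overlapped for each of the 9. Of all 10911 genes tested, 44 were called at an adjusted p under 0.05 (0.403%), 16 higher and 28 lower in zinc deficiency, and 664 (6.09%) had diets that did not overlap. None of the 9 had an unadjusted p under 0.05, against 1142 of all genes tested, and DESeq2 called none either and gave no adjusted p for Fcgbp. The fold change was above 0 for 6 of the 9, with a median log2 fold change of 0.24 against -0.0052 over all genes tested. With 4 mice per diet the intervals were wide for several of the genes, as given below for each of them.

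**Figure D2:**
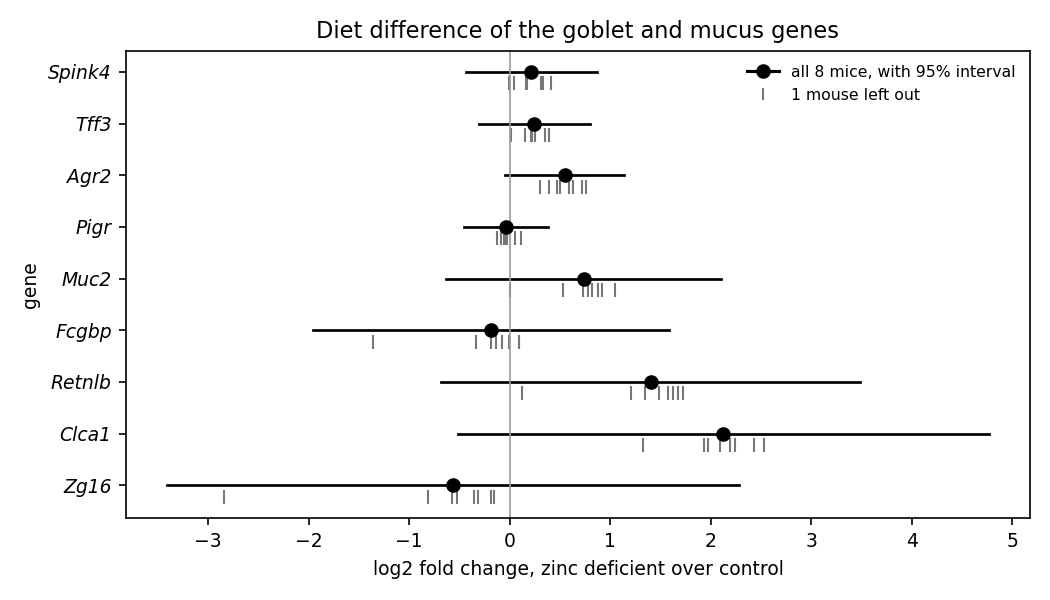
Log2 fold change of zinc deficient over control mice for each of the 9 genes from edgeR, with its 95% confidence interval over 8 mice (point and line), and the fold changes with 1 mouse left out (ticks). All 9 intervals include 0, and the ticks of Fcgbp and Zg16 reach -1.36 and -2.84 when zinc deficient 3 is left out.

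Muc2 was at 371 TMM-scaled CPM in control 1, 728 in control 2, 658 in control 3 and 906 in control 4. In zinc deficient mice 1 to 4 it was at 319.8, 760.2, 919 and 2433 TMM-scaled CPM. The lowest and the highest mouse were both zinc deficient, and zinc deficient 4 was 7.61 times as high as zinc deficient 1. The means were 666 ± 222 in control and 1108 ± 919 in zinc deficient mice (SD, n = 4 each), and the log2 fold change was 0.74 (SE 0.59, 95% interval -0.63 to 2.10, edgeR adjusted p = 0.740). Without zinc deficient 4 it was 0.0037.

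Agr2, the isomerase needed for Muc2 assembly, was at 505.5, 686, 1016 and 822 TMM-scaled CPM in control mice 1 to 4 and at 595, 1275, 919.6 and 1637 in zinc deficient mice 1 to 4. Its log2 fold change was 0.55 (SE 0.28, 95% interval -0.046 to 1.14, edgeR adjusted p = 0.521). It was 0.30 without zinc deficient 4 and 0.0028 without zinc deficient 2 and 4. As for Muc2, zinc deficient 4 was the highest mouse. Zinc deficient 1 was within the range of the control mice.

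Fcgbp was at 249, 439, 393 and 356 TMM-scaled CPM in control mice 1 to 4. It was at 192, 115 and 111 in zinc deficient mice 1, 2 and 4, and at 842 in zinc deficient 3. Thus 3 zinc deficient mice were below the lowest control mouse and 1 was above the highest. Over all mice the log2 fold change was -0.19 (SE 0.73, 95% interval -1.95 to 1.58, edgeR adjusted p = 0.961). The call depended on 1 library: without zinc deficient 3, Fcgbp was lower in zinc deficiency by edgeR, with a log2 fold change of -1.36 (adjusted p = 0.0219), and without both zinc deficient 3 and control 1 the value was -1.50 (adjusted p = 0.000929). Each mouse was left out in turn by plan, whereas the pair was chosen after its values had been seen, and the labels give no reason to leave either mouse out.

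Zg16 was the lowest of the 9 genes. It had 110, 221, 105 and 113 counts in control mice 1 to 4 (5.93, 18.1, 13.2 and 12.0 TMM-scaled CPM). In zinc deficient mice 1 to 4 it had 40, 3, 336 and 4 counts (4.32, 0.379, 26.8 and 0.374 TMM-scaled CPM). The levels of zinc deficient 2 and 4 are thus at the 3 to 4 counts where a level can barely be told from 0, and zinc deficient 3 was the highest of all mice. The log2 fold change was -0.56 (SE 1.17, 95% interval -3.40 to 2.28, edgeR adjusted p = 0.921), and -2.84 without zinc deficient 3 (adjusted p = 0.209).

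Clca1 was at 12.2, 21.6, 20.0 and 16.3 TMM-scaled CPM in control mice 1 to 4. The zinc deficient mice were at 21.7, 2.40, 105 and 174. The control mice spanned a 1.77-fold range and the zinc deficient mice a 72.4-fold range, from 19 counts in zinc deficient 2 to 1857 in zinc deficient 4. The log2 fold change was 2.13, the highest of the 9 (SE 1.09, 95% interval -0.51 to 4.77, edgeR adjusted p = 0.580), and it was 1.33 without zinc deficient 4.

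Retnlb was at 10.2, 8.52, 3.66 and 6.35 TMM-scaled CPM in control mice 1 to 4 and at 7.12, 4.17, 12.3 and 53.6 in zinc deficient mice 1 to 4. Zinc deficient 4 stood apart, and the other zinc deficient mice were close to the control range. The log2 fold change was 1.40 (SE 0.86, 95% interval -0.69 to 3.49, edgeR adjusted p = 0.658), and 0.13 without zinc deficient 4.

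Tff3 was at 365, 712, 979 and 975 TMM-scaled CPM in control mice 1 to 4 and at 939, 1068, 888.5 and 692 in zinc deficient mice 1 to 4. Control 1 was the lowest mouse, and the others overlapped. The log2 fold change was 0.24 (SE 0.26, 95% interval -0.31 to 0.80, edgeR adjusted p = 0.809). It was 0.011 without control 1 and -0.013 with the library size alone as the scale, under which the median of all genes moved to -0.37.

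Spink4 was at 3052, 5262, 8104 and 7093 TMM-scaled CPM in control mice 1 to 4 and at 5517, 7445, 5181 and 9171 in zinc deficient mice 1 to 4. As for Tff3, control 1 was the lowest mouse. The log2 fold change was 0.22 (SE 0.31, 95% interval -0.44 to 0.87, edgeR adjusted p = 0.875). It was -0.0014 without control 1 and -0.071 with the library size alone as the scale. The ratio of Spink4 to Tff3 counts was 7.28 to 8.35 in control mice. In zinc deficient mice 1 to 4 it was 5.87, 6.97, 5.83 and 13.3, so that zinc deficient 4 was above and the other 3 were below the control mice.

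Pigr was at 927, 718, 566 and 679 TMM-scaled CPM in control mice 1 to 4 and at 581, 709, 787 and 752 in zinc deficient mice 1 to 4. The log2 fold change was -0.03 (SE 0.20, 95% interval -0.45 to 0.39, edgeR adjusted p = 0.975). With the library size alone as the scale it was -0.44, and the level ranged from 509 CPM in zinc deficient 2 to 1454 in control 1. The genes of its IgA cargo were near 0, with 7 counts of Igha and 2 of Jchain over the 8 mice. Of the 12 IgA and plasma cell genes, 4 had no count and 2 were tested, with 0 called. The summed level was 22.8 to 27.0 TMM-scaled CPM in control and 20.5 to 22.9 in zinc deficient mice, most of it Sdc1 (13.5 to 21.9), a syndecan that epithelial cells also express.

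The genes differed in how much they varied among mice of 1 diet. As the SD of log2 levels, the zinc deficient mice gave 2.56 for Clca1, 2.06 for Zg16, 1.47 for Retnlb, 1.36 for Fcgbp and 1.20 for Muc2, each above that of at least 99.5% of the genes tested, whose median was 0.26. In the control mice the same genes had SDs of 0.35 for Clca1 and Fcgbp, 0.62 for Zg16 and 0.55 for Muc2 and Retnlb, against a median of 0.24. These control SDs were above those of 98.2% of the genes tested for Zg16, 96.4% for Retnlb and 96.2% for Muc2. For Fcgbp and Clca1 the shares were 77.0% and 75.3%. Tff3 and Spink4 were the reverse, with SDs of 0.67 and 0.63 in control mice and 0.26 and 0.38 in zinc deficient mice. Those of Tff3 and Spink4 were above 99.0% and 98.4% of the genes in control mice, and above 51.3% and 77.2% in zinc deficient mice. Their control SDs include control 1, the mouse with the highest TMM factor (1.57). Tff3 was at 365 TMM-scaled CPM in control 1 and 712 to 979 in the other control mice, and Spink4 at 3052 and 5262 to 8104. Pigr had 0.29 in control and 0.19 in zinc deficient mice. A difference in spread between the diets was not tested.

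**Figure D3:**
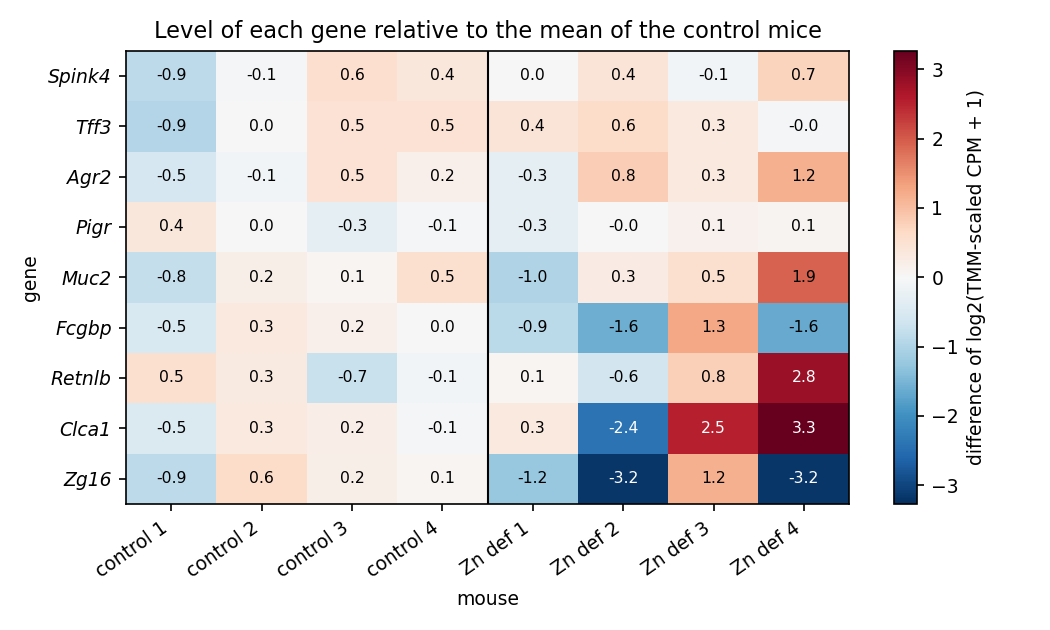
Difference of log2(TMM-scaled CPM + 1) of each gene in each mouse from the mean of the 4 control mice, in colour and in numbers, with the control mice left of the line and the zinc deficient (Zn def) mice right of it. Fcgbp and Zg16 are low in zinc deficient 1, 2 and 4 and high in zinc deficient 3, whereas Clca1 is high in zinc deficient 3 and 4.

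Over the 8 mice, Fcgbp and Zg16 varied together. Pearson's r of log2(TMM-scaled CPM + 1) was 0.972 (exact permutation p = 2.48e-05, the smallest that all orders of 8 mice can give, adjusted p = 0.000893 over 36 pairs), and Spearman's rho was 1 (exact permutation p = 4.96e-05, adjusted p = 0.00179). The order of Zg16 in zinc deficient 2 and 4 rests on 3 and 4 counts. Without zinc deficient 3 and 4, the mice farthest from the median of Fcgbp, r was 0.989. With levels centred within each diet, r was 0.981 (permutation over all orders of the 8 mice, adjusted p = 0.0116). Values centred within a diet are not exchangeable between the diets, so this p is approximate. Of the 10910 other genes tested, Zg16 was the gene most like Fcgbp and Fcgbp the gene most like Zg16. The counts of Fcgbp were 24.3 to 41.9 times those of Zg16 in control mice and 44.4 and 31.4 times in zinc deficient 1 and 3. In zinc deficient 2 and 4, with 3 and 4 counts of Zg16, the ratios were 305 (95% counting interval 104 to 1480) and 298 (116 to 1095), both above the other mice.

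Muc2 and Fcgbp showed no relation past the threshold (r = -0.159, exact permutation adjusted p = 0.890). The ratio of Muc2 to Fcgbp counts was 1.49, 1.66, 1.68 and 2.55 in control mice 1 to 4, and 1.67, 6.59, 1.09 and 21.8 in zinc deficient mice 1 to 4. Zinc deficient 4 had the most Muc2, and its Fcgbp was close to the 115 TMM-scaled CPM of zinc deficient 2, the other mouse with little Fcgbp. The ratio of Muc2 to Clca1 counts was 30.5 to 55.5 in control mice and 14.7, 317, 8.75 and 14.0 in zinc deficient mice 1 to 4.

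**Figure D4:**
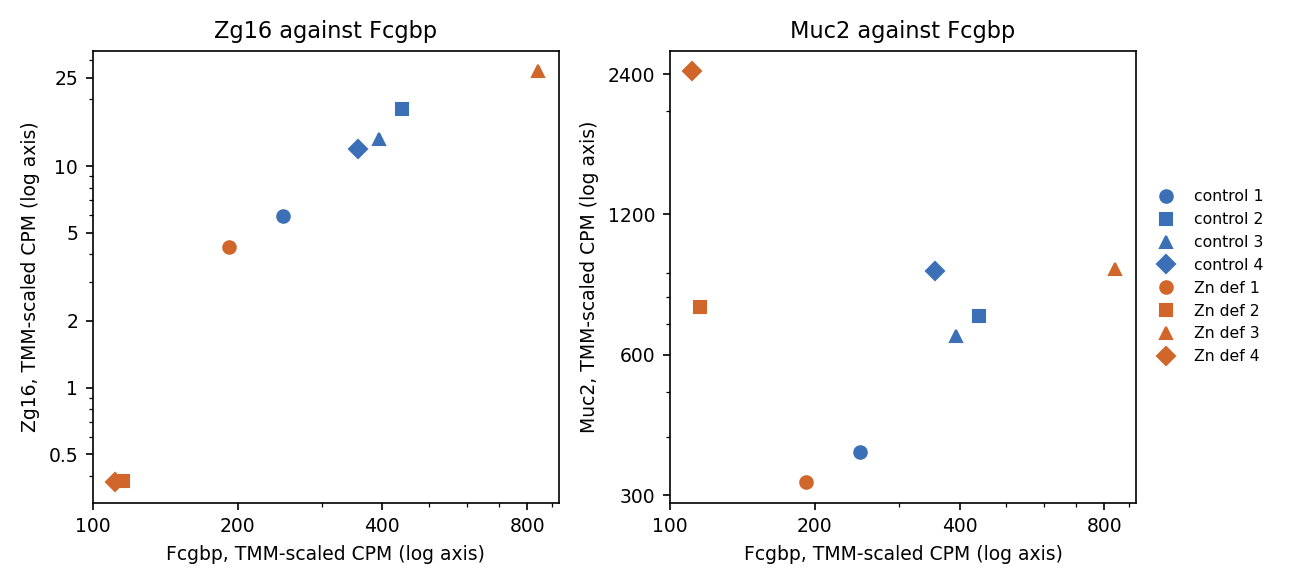
TMM-scaled CPM of Zg16 (left) and of Muc2 (right) against that of Fcgbp in each of the 8 mice, on log axes, with control mice in blue and zinc deficient (Zn def) mice in orange. Zg16 and Fcgbp put the mice in the same order (rho = 1), whereas Muc2 is highest, at 2433, in zinc deficient 4, where Fcgbp is at 111.

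None of the other 35 pairs passed the threshold. The closest were Agr2 with Spink4 (r = 0.850) and Muc2 with Agr2 (r = 0.848), each with an exact permutation adjusted p of 0.100. With the library size alone as the scale, Agr2 with Spink4 gave r = 0.612 (exact permutation adjusted p = 0.463). On that scale Muc2 with Agr2 gave r = 0.871 (exact permutation adjusted p = 0.203). Clca1 and Retnlb gave r = 0.795 (exact permutation adjusted p = 0.140), which was 0.460 without zinc deficient 2 and 4. Tff3 and Pigr gave r = -0.759 (exact permutation adjusted p = 0.185). Of all genes tested, the 3 most like Muc2 over the 8 mice were Msmo1, an enzyme of cholesterol synthesis (r = 0.968), 5033406O09Rik (r = 0.942) and Gm45330 (r = 0.941), given as a description.

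Of the other mucins, 10 of 11 were in the table, 4 were tested and 0 were called by edgeR. The transmembrane mucin Muc13 was by far the highest, at 791 to 847 TMM-scaled CPM in control mice and 859 to 971 in zinc deficient mice. These ranges did not overlap, but the log2 fold change of 0.13 did not pass (SE 0.18, edgeR adjusted p = 0.861). Muc3a was at 10.8 to 19.6 and 12.3 to 40.9 TMM-scaled CPM, Muc4 at 5.17 to 7.23 and 4.96 to 16.1, and Muc17 at 1.23 to 3.81 and 1.52 to 7.02, in control and zinc deficient mice respectively. Muc3a was called without the filter on low counts. No count was found for Muc5ac, Muc5b or Muc16, the first 2 of which are gel-forming mucins of stomach and airway. No count over all mice allows a level of up to 0.0339 TMM-scaled CPM each, for counting error only.

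Of 23 enzymes of mucin glycosylation, 21 were tested and 0 were called by edgeR, with a median log2 fold change of 0.13. The highest were Galnt7, Galnt12 and Galnt4, which add GalNAc to mucin proteins, and C1galt1c1, the chaperone of the enzyme that extends them. C1galt1c1 was at 78.9 to 121 TMM-scaled CPM in control and 128 to 209 in zinc deficient mice without overlap, with a log2 fold change of 0.57 that did not pass (SE 0.18, edgeR adjusted p = 0.220). It was called without the filter on low counts. St6galnac1, the sialyltransferase of goblet cell mucin, had no count in any mouse.

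Of 14 goblet cell regulators, 14 were tested and 0 were called by edgeR or under any alternative. The highest were Xbp1, a factor of the secretory stress response (212 to 261 TMM-scaled CPM in control and 228 to 238 in zinc deficient mice), Elf3 (86.7 to 103 and 80.5 to 122), Spdef, a factor of goblet and Paneth cell maturation (76.0 to 87.1 and 89.9 to 125), and Foxa3 (64.8 to 90.3 and 84.9 to 116). Of the 14, 2 did not overlap between the diets, against 6.09% of all genes tested. These were Spdef, with a log2 fold change of 0.28 (SE 0.15, edgeR adjusted p = 0.513), and Atoh1. Atoh1 was at 59.3 to 70.3 TMM-scaled CPM in control and 72.6 to 80.3 in zinc deficient mice (log2 fold change 0.25, SE 0.13, edgeR adjusted p = 0.532). Over the list, 8 of the 14 had a fold change above 0, with a median log2 fold change of 0.033. By edgeR 1 of the 14 had an unadjusted p under 0.05, against 1142 of all 10911 genes tested. It was Foxa2, with a log2 fold change below 0 (-0.54, SE 0.18, edgeR adjusted p = 0.256).

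Of 32 other goblet cell markers, 30 were in the table, 29 were tested and 0 were called by edgeR. The highest were Guca2a, which encodes guanylin, the oxidoreductases Qsox1 and Txndc5, and the chemokine Ccl9. Guca2a was at 333 to 573 TMM-scaled CPM in control and 607 to 698 in zinc deficient mice (log2 fold change 0.48, SE 0.19, edgeR adjusted p = 0.376). Ccl9 was at 153 to 287 and 362 to 1019, again without overlap (log2 fold change 1.28, SE 0.32, edgeR adjusted p = 0.116). In all, 5 of the 29 had diets that did not overlap, against 6.09% of all genes tested. The other 3, named after their values were seen, were Klk1 (142 to 189 TMM-scaled CPM in control and 99.5 to 112 in zinc deficient mice), Ttc39a (65.1 to 73.3 and 76.2 to 80.1) and S100a6 (1.67 to 4.13 and 4.42 to 5.80). Klk1 (log2 fold change -0.63, SE 0.15, edgeR adjusted p = 0.0746) was called by DESeq2, without the filter on low counts and without control 1. Ccl9 was called without that filter and with a replicate block. A fold change above 0 was found for 18 of the 29, with a median log2 fold change of 0.095.

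Among 18 genes listed as relatives of the 9, not all of the same gene families, 7 were tested and 1 was called. Over all genes tested the share called was 0.403%. Clca4b, of the family of calcium-activated chloride channel regulators, was lower in zinc deficiency. It was at 35.6, 31.3, 31.9 and 34.0 TMM-scaled CPM in control mice 1 to 4 and at 20.2, 12.0, 13.2 and 8.42 in zinc deficient mice 1 to 4, a log2 fold change of -1.31 (SE 0.20, 95% interval -1.74 to -0.88, edgeR adjusted p = 0.00719). Each zinc deficient mouse was below each control mouse, unlike for Clca1 itself. Clca4b was also called with each mouse left out in turn, but not with the library size alone as the scale (log2 fold change -1.66, edgeR adjusted p = 0.0537) or without zinc deficient 2 and 4 (edgeR adjusted p = 0.119). Its relative Clca3b was at 134 to 274 TMM-scaled CPM in control and 66.1 to 136 in zinc deficient mice, and its log2 fold change of -0.99 did not pass (SE 0.23, edgeR adjusted p = 0.0811). Clca3b was called by DESeq2, with a replicate block, without the filter on low counts and without control 3. Clca3a2 was at 1.26 to 3.72 TMM-scaled CPM in control and 0.468 to 2.15 in zinc deficient mice. Its log2 fold change of -1.33 did not pass (SE 0.50, edgeR adjusted p = 0.323). Of the 7, these 3 Clca genes had an unadjusted p under 0.05 by edgeR, against 1142 of all 10911 genes tested. The Clca genes are similar in sequence and lie side by side, so that reads shared between them may be split by the counting.

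**Figure D5:**
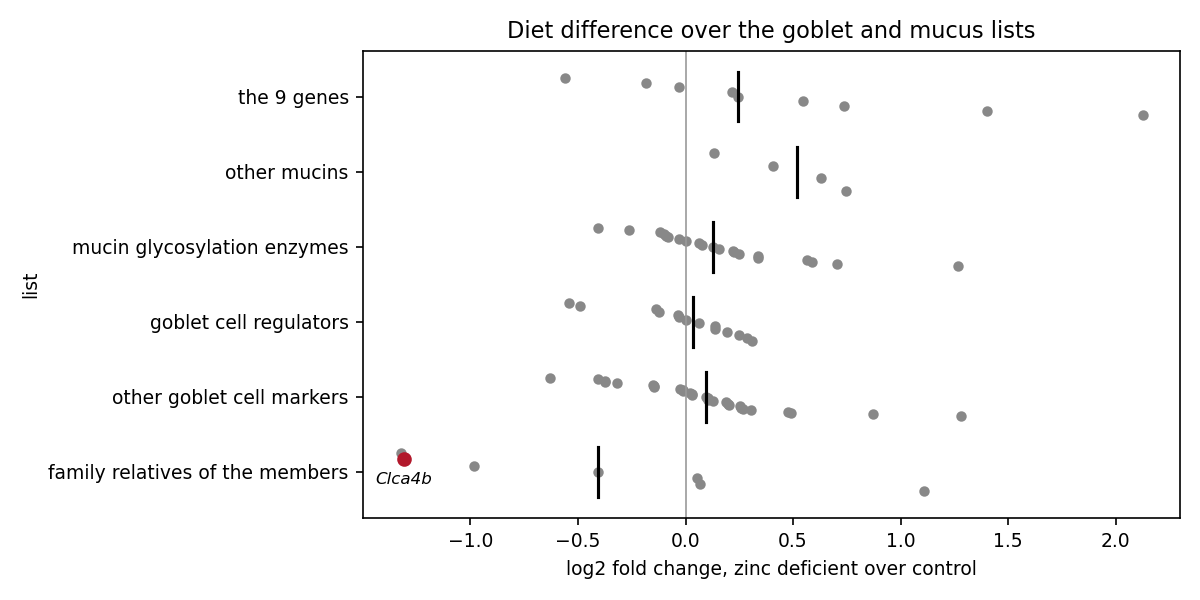
Log2 fold change of zinc deficient over control mice (edgeR) of each tested gene of the 9 goblet and mucus genes and of 5 related lists, with a bar at the median of each list. Clca4b, in red, is the only gene called in these lists, and the 9 genes lie between -0.56 (Zg16) and 2.13 (Clca1).

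Markers of other epithelial cells were measured beside these genes. Zinc deficient 3, the mouse with the highest Fcgbp and Zg16, also had the highest tuft cell markers, summed to 417 TMM-scaled CPM over 9 genes against 24.8 to 72.2 in the other zinc deficient mice and 42.7 to 114 in control mice. Dclk1, Trpm5, Avil and Rgs13 led this list, of which 8 were tested and 0 called. Zinc deficient 2, with little Fcgbp, Zg16 and Clca1, had the lowest sum, and zinc deficient 4, with as little Fcgbp and Zg16, had a sum of 72.2. The 12 enterocyte markers summed to 540 to 717 TMM-scaled CPM in control mice and 489 to 696 in zinc deficient mice, with 0 of 12 called. The 12 enteroendocrine markers summed to 25.9 to 44.8 and 16.5 to 41.6, with 0 of 3 tested called by edgeR (Chga without the filter) and Pyy without a count. Of all 10911 genes tested, 5374 had a fold change above 0 and 1142 had an unadjusted p under 0.05 by edgeR. The diets did not overlap for 6.09% of these genes, and 0.403% were called. Of 10 stem and transit amplifying cell markers, 0 had a fold change above 0 (median log2 fold change -0.80), 8 had an unadjusted p under 0.05 and 3 did not overlap between the diets. By edgeR 1 was called: Top2a, a topoisomerase of dividing cells, was at 29.5 to 44.5 TMM-scaled CPM in control and 10.5 to 23.1 in zinc deficient mice (log2 fold change -1.18, SE 0.21, edgeR adjusted p = 0.0229). That call was lost without control 2, control 4, zinc deficient 2 or zinc deficient 4, with log2 fold changes from -1.17 to -1.01. It was also lost with the library size alone (-1.52, edgeR adjusted p = 0.116) and without both zinc deficient 2 and 4 (-0.84, edgeR adjusted p = 0.236). Olfm4, a crypt base marker, was called by DESeq2, with the library size alone and without the filter, Axin2 without the filter and with a replicate block, and Mki67 without the filter. Of 15 Paneth cell markers, 0 were called by edgeR, 15 had a fold change above 0 (median log2 fold change 0.46), 6 had an unadjusted p under 0.05 and 4 did not overlap between the diets, against 6.09% of all genes tested. DESeq2 called Defa21, Defa22 and Mptx2 of this list, and edgeR called Mptx2 with the library size alone as the scale, without the filter on low counts, without zinc deficient 3 and without both control 1 and zinc deficient 3. Ang4 was called without the filter. The 11 T and myeloid cell markers summed to 15.7 to 40.2 TMM-scaled CPM in control and 37.3 to 52.0 in zinc deficient mice, mostly Lyz2. Lyz2 was the 1 gene of the 11 with a count in all mice and the 1 tested. It was called only without the filter. Cd3e, Cd8a and Csf1r were among the 5 without a count, so the difference in these sums is that of Lyz2 for the most part. The 9 stromal and vessel markers stayed at or below 1.48 in sum and the 5 erythroid markers at or below 0.656. The part of these other cells in the spread of Fcgbp, Zg16 and Clca1 was not tested.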

How the data were processed

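RNA-seq of sorted Paneth cells from 4 control and 4 zinc deficient mice was analysed. The values deposited by the authors are raw counts, whole numbers for each Ensembl identifier. The submitters' processing notes name FastQC 0.12.0, STAR 2.7.0a, DESeq2 and the build mm39. The counting program, strand setting and annotation were not given in the sources used here. Columns were assigned to mice by diet and number, with 0 columns left over. GENCODE M39 on GRCm39 gave symbols, positions and exon lengths to 54749 of 55414 identifiers. The rest took at most 0.00991% of the counts of a mouse.

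The diet comparison used R 4.3.3 and edgeR 4.0.16: TMM factors, the filter on low expression (10911 genes kept), a quasi-likelihood test with the robust option, and adjusted p-values (Benjamini-Hochberg, all genes tested) with a threshold of 0.05. DESeq2 1.42.0 was an alternative, as were other scalings, no filter, a replicate block and each mouse left out. Levels between genes were compared per kilobase of exon. Correlations used log2(TMM-scaled CPM + 1). Exact permutation tests used all orders or sign flips, two-sided. Counting intervals are exact, at 95%, and cover counting error only. The rest was done in Python 3.11.15 (scipy 1.17.1, numpy 2.4.6, pandas 2.3.3, matplotlib 3.10.9).

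On simulated counts of the 10911 genes, the edgeR step called 85.5% of 200 changed genes, and 3.93% of its 178 calls were on unchanged genes. The simulation gave each gene the spread typical of its level. In zinc deficient mice, Muc2, Fcgbp, Zg16, Clca1 and Retnlb varied more than most genes. The 85.5% is therefore not the share that would be found among such genes. Replicates of a diet differed by more than sampling noise. Deviations from the mean of the diet had correlations of 0.114, 0.0925, 0.00489 and 0.0926 between same-numbered mice of both diets. Mice of different numbers were not compared in this way, so these values cannot decide whether the numbers pair the mice. The numbers were not taken as pairs, and a replicate block was run as an alternative.

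The 9 genes and the lists were chosen with earlier results of these data known. A gene of the tuft cell list is not reported here. Named in the text are the 9 genes, of each list the genes called and up to 4 with the highest mean level, and the 3 genes most like Muc2. Genes without a count and genes called under an alternative are named besides. Klk1, Ttc39a, S100a6, Igha, Jchain, Foxa2 and, for its levels, Atoh1 were named after their values were seen.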

Additional observations from a re-analysis of the deposited data

Results flagged for a closer look

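Among 110 groups of 4 mice tested (named genes in each diet), 16 had 1 mouse far from the other 3, by Dixon's 95% criterion on the gap to the nearest mouse. The criterion was applied to TMM-scaled CPM and not to log2 levels. It flags about 1 in 20 groups by chance where values are independent and follow a normal distribution. Genes such as Fcgbp and Zg16 varied together and a normal distribution was not checked, so the number expected by chance here is not known. Of the 9 genes, 3 were among the 16, all in zinc deficient mice. Fcgbp was at 842 TMM-scaled CPM in zinc deficient 3, against 111 to 192 in the other 3. Zg16 was at 26.8 in the same mouse, against 0.374 to 4.32. Retnlb was at 53.6 in zinc deficient 4, against 4.17 to 12.3.

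Zinc deficient 3 also stood apart for tuft cell markers, with 88.3 TMM-scaled CPM for Trpm5, 99.6 for Dclk1, 81.3 for Avil and 58.5 for Rgs13, and for Galnt7 (175), Galnt12 (119), Clca3a2 (2.15), Ptprc (2.55) and Sst (0.957, with no count in the other 3). Zinc deficient 4 stood apart for Muc17 (7.02), Spdef (125) and Ccl9 (1019), all above the other zinc deficient mice. Control 3 stood apart for Txndc5 (466, against 396 to 407 in the other control mice).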

How the results depend on the processing

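Over all genes tested, the count of 44 called genes became 134 with DESeq2, 11 with the library size alone as the scale, 251 without the filter on low counts, 25 without the robust option, 8 to 36 with 1 mouse left out and 5 without zinc deficient 2 and 4. Of the 9 genes, 0 were called in any of these, except Fcgbp, the 1 gene called without zinc deficient 3 or without both control 1 and zinc deficient 3 (range 0 to 1 with 1 mouse left out). DESeq2 gave Fcgbp no adjusted p. Over the lists, 2 called genes became 8 with DESeq2, 14 without the filter, 1 to 3 with 1 mouse left out and 0 without zinc deficient 2 and 4. With a replicate block, 53 genes were called over all genes, 5 over the lists and 0 of the 9. Whether the numbers pair the mice cannot be told. The cause of these shifts was not tested.

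Some fold changes of the 9 genes changed sign, none of them past the threshold after the change. Log2 fold changes turned to -0.10 for Muc2, 0.53 for Fcgbp, 0.38 for Zg16 and -0.13 for Spink4 without zinc deficient 2 and 4. With 1 mouse left out, Fcgbp ranged from -1.36 to 0.098 (0.091 without zinc deficient 2), Spink4 from -0.0014 to 0.41 and Pigr from -0.13 to 0.11 (0.054 without zinc deficient 1). Pigr was at 0.060 without control 1 and zinc deficient 3. With the library size alone, Tff3 was at -0.013 and Spink4 at -0.071. Clca4b lost its call under that scale and without zinc deficient 2 and 4. The level order passed at 4 to 6 of 8 steps. Without the length correction the order was Spink4, Agr2, Muc2, Tff3, Pigr, Fcgbp, Clca1, Retnlb and Zg16, with Muc2 above Tff3 and Pigr. Without zinc deficient 4, Zg16 came before Clca1. The co-variation of Fcgbp with Zg16 was the 1 pair called in all 12 alternatives. The sets without 2 libraries were chosen after seeing the data. Depth limits Zg16 most, with 3 and 4 counts in zinc deficient 2 and 4.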
